A study of Caenorhabditis elegans with 2 samples.

Results

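The Argonaute and small RNA pathway genes of the nematode Caenorhabditis elegans were examined in a ChIP-seq experiment (chromatin immunoprecipitation followed by sequencing) on the protein encoded by Y48G9A.11. A list of 52 genes was used, and 51 of them carried their listed name in the Ensembl annotation of genome assembly WBcel235, out of 19973 protein-coding genes. A gene was counted as having a main peak when the summit of a peak on the authors' thresholded list of both replicates fell within a window from 1000 bp upstream to 200 bp downstream of its 5' end. For a gene without one, the strongest candidate in the same window was taken from the authors' ranked list, which also holds peaks below the threshold. The remaining name, prg-2, belongs to a pseudogene in the RefSeq annotation, which had no main peak and a strongest candidate of 79.5 at -211 bp, and it is left out of the counts.

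The experiment used whole L4 larvae of strain RW12291 at 47.5 hours, in which CRISPR had joined TY1, EGFP and 3xFLAG tags to the endogenous Y48G9A.11 gene. An antibody against GFP was used, chromatin was sheared to 200-800 bp, and both samples were biological replicates of 1 group, so no condition was compared with another. Whole animals were used, so germ line and soma cannot be told apart. No sample lacked the tag, so binding by the protein and general capture of highly transcribed loci cannot be told apart either. The main list held 2228 peaks and the ranked list 93476 candidates. Signal values are the authors' scores per peak, in the authors' units, and signals of the list made from both replicates are about the sum of those of the replicates. Read counts were not analysed here, so sequencing depth is unknown.

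Argonaute proteins hold a small RNA and find other RNAs that pair with it. In C. elegans, primary small RNAs come from Dicer or from piRNA genes, RNA-dependent RNA polymerases then make secondary small RNAs on the target, and worm-specific Argonautes carry these into the cytoplasm, germ granules or the nucleus. In the germ line this system silences transposons, licenses expressed genes and passes silencing on to descendants. MicroRNAs use a separate pair of processing proteins, Drosha and Pasha, before Dicer and their own Argonautes.

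The sequences under the peaks of wago-4, rrf-3 and eri-5 are shown first because wago-4 has the strongest peak of these genes and because the 3 differ in how far they hold a sequence shared by many of the strongest peaks. All are from the ce11 genome on the gene's own strand, which is the plus strand for each. The wago-4 and eri-5 sequences run 100 bp to both sides of the summit, and that of rrf-3 stops at the last base before the gene. Capitals mark GGAGTGTCGT, a sequence of 10 letters described below, allowing 1 mismatch. The positions are chrII:12919253-12919452 for wago-4, chrII:8162347-8162464 for rrf-3 and chrIV:2390460-2390659 for eri-5.
wago-4: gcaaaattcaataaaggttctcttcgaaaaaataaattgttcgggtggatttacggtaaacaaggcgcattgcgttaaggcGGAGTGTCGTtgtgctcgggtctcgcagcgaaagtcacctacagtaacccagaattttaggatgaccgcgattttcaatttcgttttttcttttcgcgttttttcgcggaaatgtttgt
rrf-3: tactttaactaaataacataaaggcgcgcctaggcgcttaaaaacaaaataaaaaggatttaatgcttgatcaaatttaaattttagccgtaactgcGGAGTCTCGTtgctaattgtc
eri-5: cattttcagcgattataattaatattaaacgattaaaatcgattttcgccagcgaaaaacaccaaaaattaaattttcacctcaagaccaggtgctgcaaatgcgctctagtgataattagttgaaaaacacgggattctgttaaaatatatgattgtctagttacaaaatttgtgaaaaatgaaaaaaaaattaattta
The wago-4 sequence holds the 10 letters exactly, beginning 19 bp upstream of the summit. The rrf-3 sequence holds them with 1 difference, G6C, counted from 1 at the 5' end of GGAGTGTCGT as written. The eri-5 sequence holds no such match.

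Main peaks lay at 8 of the 51 genes (15.7%), against 6.13% of all protein-coding genes (1225 of 19973). Among genes with any listed candidate in the window, the counts were 8 of 44 genes (18.2%) against 10% of 12216. The 8 were the Argonaute genes wago-4 and alg-5, the RNA-dependent RNA polymerase genes rrf-3 and ego-1, the Dicer partner gene eri-5, the amplification genes mut-15 and znfx-1, and the nuclear RNAi gene nrde-2. A further 36 of the 51 genes had a candidate only, as did 10991 of the 19973 protein-coding genes. The windows of 7 held nothing on the list, as did those of 7757 of all protein-coding genes. The 7 were alg-4, rde-1, rde-4, mut-16, snpc-4, pash-1 and sid-1. No test was made of these shares, since the genes were listed with earlier results of these data known.

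In the list, the main peaks had higher signals than the candidates. The authors' threshold splits these kinds, so a difference in signal is partly built in. Signals of the main peaks ran from 167.9 at znfx-1 to 2907.2 at wago-4 with a median of 254.3, while the median over all protein-coding genes with a main peak was 158.2. The candidates ran from 9.3 at csr-1 to 94.4 at rde-12 with a median of 45.7, close to the 41.8 over all protein-coding genes with a candidate only. No gene of the list lay between 94.4 and 167.9. Over all protein-coding genes the kinds overlapped, with main peaks from 15.7 upward and candidates up to 214.3. All 8 main peaks were in the thresholded list of replicate 1 and in that of replicate 2, whereas 625 of the 1225 protein-coding genes with a main peak (51%) were. Of the 565 protein-coding genes whose main peak was at least as strong as that of znfx-1, 532 (94.2%) were in both, a share nearer to that of the 8.

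**Figure D1:**
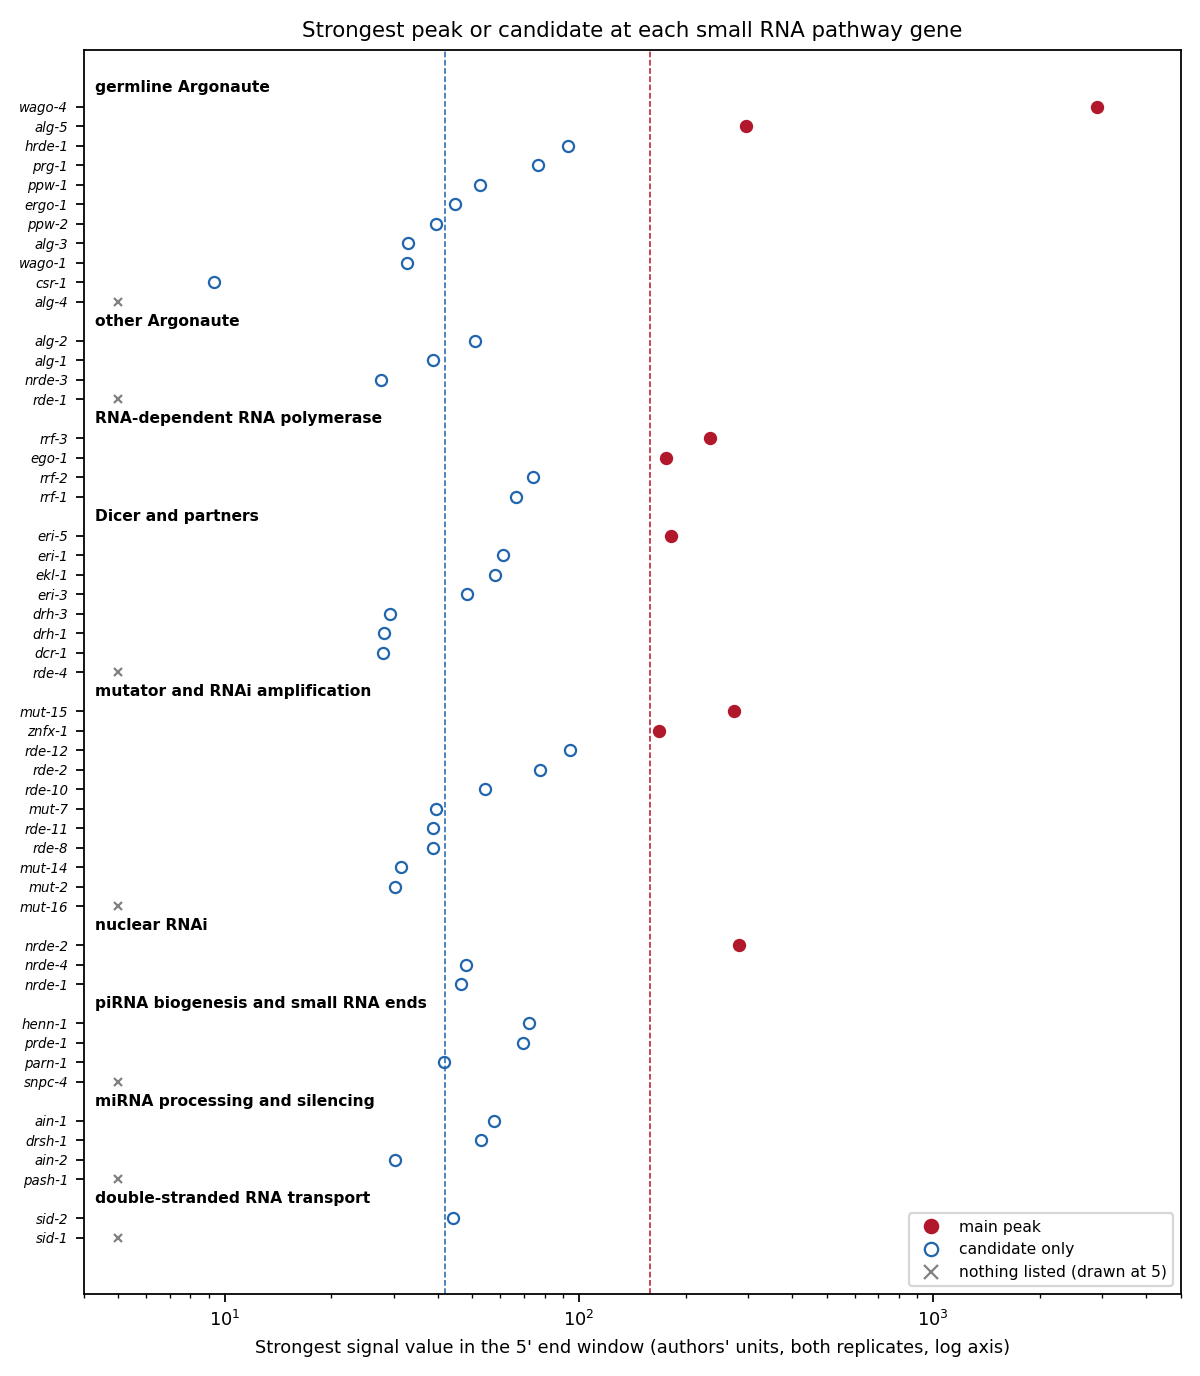
Strongest peak or candidate in the 5' end window of each gene, by role, as the authors' signal value from both replicates on a log axis. Filled points are main peaks, open points are candidates, and crosses drawn at 5 mark windows with nothing listed. The red dashed line is the median of all protein-coding genes with a main peak (158.2) and the blue dashed line that of those with a candidate only (41.8). The wago-4 point (2907.2) stands far to the right of all others.

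Among the germline Argonautes, wago-4 and alg-5 had main peaks and the other 9 annotated genes did not. The gene wago-4 encodes an Argonaute of germ granules that acts in the inheritance of RNA interference (RNAi) across generations. Its peak had a signal of 2907.2 in the list of both replicates, 1452.9 in replicate 1 and 1450.3 in replicate 2. It ranked 2 of 2228 in that list, 3 in replicate 1 and 2 in replicate 2, so the replicates gave nearly the same value and place. The peak covered chrII:12919147-12919550 and ended at the base before the gene, with its summit at 12919353, 198 bp upstream of wago-4 and between genes. The same summit lay 343 bp upstream of F58G1.2, which starts 541 bp from wago-4 and runs the other way. A second main summit lay 849 bp upstream of wago-4, inside a coding exon of F58G1.2, with a signal of 143.0 (76.2 in replicate 1 and 75.7 in replicate 2). Of the replicates' own thresholded lists, only that of replicate 2 held it.

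The gene alg-5 encodes a microRNA-binding Argonaute that is expressed in the germ line. Its peak had a signal of 296.2 (151.1 in replicate 1 and 149.5 in replicate 2) and ranked 256. The summit at position 9988987 of chromosome I lay 815 bp upstream of alg-5. It was nearer to a pair of divergent histone genes, 145 bp from his-68 and 224 bp from his-67. The peak of alg-5 is therefore one that 3 genes share, and the start of his-68 is the nearest.

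Of the annotated germline Argonautes without a main peak, hrde-1 and prg-1 had the strongest candidates, with prg-1 below the 79.5 of the pseudogene prg-2, a close relative. The gene hrde-1 encodes the nuclear Argonaute of heritable RNAi. Its candidate had a signal of 93.3 (65.3 in replicate 1 and 34.9 in replicate 2) at 232 bp upstream. The gene prg-1 encodes the Piwi protein that binds piRNAs. Its candidate had a signal of 76.5 (52.5 and 32.4) at 162 bp inside the gene, in a coding exon. In both genes replicate 1 was the higher.

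The remaining candidates of germline Argonautes were weaker. For ppw-1, an Argonaute needed for germline RNAi, the signal was 52.7, and for ergo-1, which binds a class of Dicer-made small RNAs in oocytes and embryos, it was 44.7. The secondary Argonaute gene ppw-2 had 39.6, the sperm Argonaute gene alg-3 had 33 and wago-1, which binds secondary small RNAs, had 32.7. The weakest was csr-1, whose product binds small RNAs made on expressed germline genes, with 9.3 at 170 bp inside the gene, listed in replicate 2 alone of the replicates (4.8). The partner of alg-3 in sperm, alg-4, had nothing listed.

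Main peaks also lay inside some germline Argonaute genes beyond the window. The share of all protein-coding genes with such peaks is not given here, so these are descriptions only. In csr-1 a peak with a signal of 161.2 (replicate 1 gave 87.1 and replicate 2 gave 77.9) had its summit 1136 bp into the gene, in an intron. That summit was 210 bp upstream of the start of a shorter csr-1 transcript, which begins 1346 bp into the gene. The gene frpr-10 is also annotated there. In ppw-1 a peak of 203.1 (131.1 and 84.1) lay 570 bp into the gene, in an intron and 780 bp upstream of a transcript that starts at 1350 bp. Both peaks were in both replicates' own lists. At the other end of hrde-1 a peak of 145.5 (63.6 and 102.0) lay 3755 bp into the gene, in the 3' UTR, and it too was in both lists.

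A weaker main peak in csr-1 (85.8), in a coding exon 3546 bp into the gene, was in the own list of neither replicate. When the window was placed at the start of any annotated transcript, csr-1 and ppw-1 joined the genes with a main peak. The count then rose to 10 of 51 genes, against 6.76% of all protein-coding genes, and that of the germline Argonautes to 4 of 11.

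None of the 4 other Argonautes had a main peak. The microRNA Argonaute gene alg-2 had the strongest candidate (51, with 29.9 in replicate 1 and 28.1 in replicate 2), followed by its paralog alg-1 (38.6). For nrde-3, the nuclear Argonaute of somatic cells, the signal was 27.6, and rde-1, the Argonaute that starts RNAi against introduced double-stranded RNA, had nothing listed.

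In the main setting, germline Argonautes and the other genes of the list had similar shares and medians. A main peak lay at 2 of 11 germline Argonautes (18.2%) and at 6 of the 40 other genes (15%). Counting a window with nothing listed as 0, the median strongest signal was 44.7 for germline Argonautes and 47.3 for the other genes, against 25.6 for all protein-coding genes. The range of the germline Argonautes was the wider, since it holds both the highest value of the list (wago-4) and the lowest listed value (csr-1). With 11 genes a change of 1 gene moves the share greatly, and the difference was not tested.

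Of the 4 RNA-dependent RNA polymerases, which copy RNA templates into small RNAs or their precursors, rrf-3 and ego-1 had main peaks. The product of rrf-3 works with Dicer in the complex that makes primary small RNAs in the germ line. Its peak had a signal of 234.2 (125.9 in replicate 1 and 102.7 in replicate 2) and ranked 380. Its summit lay 18 bp upstream of the gene, the nearest to a 5' end among the 8. The divergent gene emb-27, which encodes a subunit of the anaphase-promoting complex, shares it at 277 bp upstream. The product of ego-1 makes secondary small RNAs in the germ line. Its peak had a signal of 176.4 (102.3 and 87.7), ranked 636, and lay 364 bp upstream, with the piRNA gene 21ur-14981 between the summit and ego-1. A second, weak summit with a signal of 9.3 lay 566 bp upstream of ego-1.

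The gene rrf-1, an RNA-dependent RNA polymerase of somatic RNAi, lies next to ego-1 on the same strand with 563 bp between them. It had a candidate of 66.4, listed in replicate 2 alone of the replicates (36.5), so the adjacent genes differed in their listing. The fourth, rrf-2, had a candidate of 74.3 (26.7 and 58.7), higher in replicate 2. The median of the 4 genes was 125.4.

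Among Dicer and its partners, eri-5 alone of 8 genes had a main peak. Its product, a Tudor domain protein, joins RRF-3 to Dicer. The peak had a signal of 181.9 (77.6 in replicate 1 and 96.4 in replicate 2), ranked 603, and lay 261 bp upstream of eri-5, in the window of no other gene. Other genes of the group whose products join this complex had candidates only, with 61.1 at the exonuclease gene eri-1, 48.2 at eri-3 and 28.0 at dcr-1, which encodes Dicer itself. The helicase genes drh-3 and drh-1 had 29.3 and 28.1. The Tudor domain gene ekl-1 had a candidate of 58.1, and a main peak of 219.7 (92.1 and 136.0) in its 3' UTR, 2805 bp into the gene and in the 5' end window of a neighbouring gene. For rde-4, whose product hands double-stranded RNA to Dicer, nothing was listed.

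Of the 11 mutator and amplification genes, mut-15 and znfx-1 had main peaks. The product of mut-15 is a component of mutator foci, the sites where secondary small RNAs are made. Its peak had a signal of 274.3 (125.3 in replicate 1 and 157.5 in replicate 2), ranked 294, and lay 258 bp upstream. At 62 bp it was nearer to the divergent gene fib-1, which encodes the nucleolar protein fibrillarin. The helicase ZNFX-1 acts with WAGO-4 in the inheritance of RNAi. The znfx-1 peak had a signal of 167.9 (81.5 and 87.9), ranked 703, and lay 359 bp upstream in the window of no other gene.

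The strongest candidate of the whole list was in this group, at the helicase gene rde-12, with 94.4 (39.1 and 48.2) at 848 bp upstream. The mutator gene rde-2 had 77.7 at 189 bp inside the gene and rde-10 had 54.4 (48.8 in replicate 1 and 13.4 in replicate 2). The exonuclease-like mut-7 had 39.5, rde-11, whose product works with RDE-10, had 38.7, and the nuclease gene rde-8 had 38.6. The helicase gene mut-14 had 31.4 and the nucleotidyltransferase gene mut-2 had 30.3. The scaffold gene of mutator foci, mut-16, had nothing listed.

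Of the 3 nuclear RNAi genes, whose products act with a nuclear Argonaute to hold back transcription, nrde-2 had a main peak. It had a signal of 282.6 (164.5 in replicate 1 and 131.9 in replicate 2) and ranked 279. The summit lay 920 bp upstream of nrde-2, the farthest of the 8, and 433 bp upstream of the divergent gene atad-3, which encodes a mitochondrial ATPase. The other 2, nrde-4 (47.9) and nrde-1 (46.6), had candidates close to the median of all candidates of the list.

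The groups of piRNA production and small RNA ends (4 genes), microRNA processing and silencing (4) and double-stranded RNA transport (2) held no main peak. Read against the 6.13% of all protein-coding genes, 0 of 10 genes is not a departure that a count of this size can show. The small RNA methyltransferase gene henn-1 had a candidate of 72.2, prde-1, needed for piRNA precursors, had 69.4 (25.2 in replicate 1 and 47.2 in replicate 2), and the trimming enzyme gene parn-1 had 41.7. The gene snpc-4, whose product binds piRNA gene clusters, had nothing listed. In the microRNA group the GW182-type genes ain-1 and ain-2 had 57.6 and 30.2, and the Drosha gene drsh-1 had 52.9, while the Pasha gene pash-1 had nothing listed. The gut RNA uptake gene sid-2 had 44.2, and sid-1, which encodes the double-stranded RNA channel, had nothing listed.

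The thresholded lists select peaks whose ranks are alike between lists, so main peaks and candidates differ in replicate likeness by how they are defined, and the values are given as a description. Over the 8 main peaks, replicate 1 was higher at 5 genes and replicate 2 at 3, and the ratio of replicate 1 to replicate 2 ran from 0.80 to 1.25. Over all main peaks listed in both replicates its median was 0.95, and the central 90% ran from 0.54 to 1.66. Of the 36 candidates, 33 were overlapped by a listed peak in both replicates and 3 in a single one. The summits of these overlapping peaks could differ, as for mut-14 with -749 bp in replicate 1 and -386 bp in replicate 2. The ratio over those 33 ran from 0.27 to 5.98. Of the 36, 0 were in the thresholded list of either replicate. All 8 main summits lay between genes, as did 14 of the 36 candidates, while 13 candidates lay in coding exons. The same shares over all protein-coding genes are not given here, so these counts describe the list alone.

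**Figure D2:**
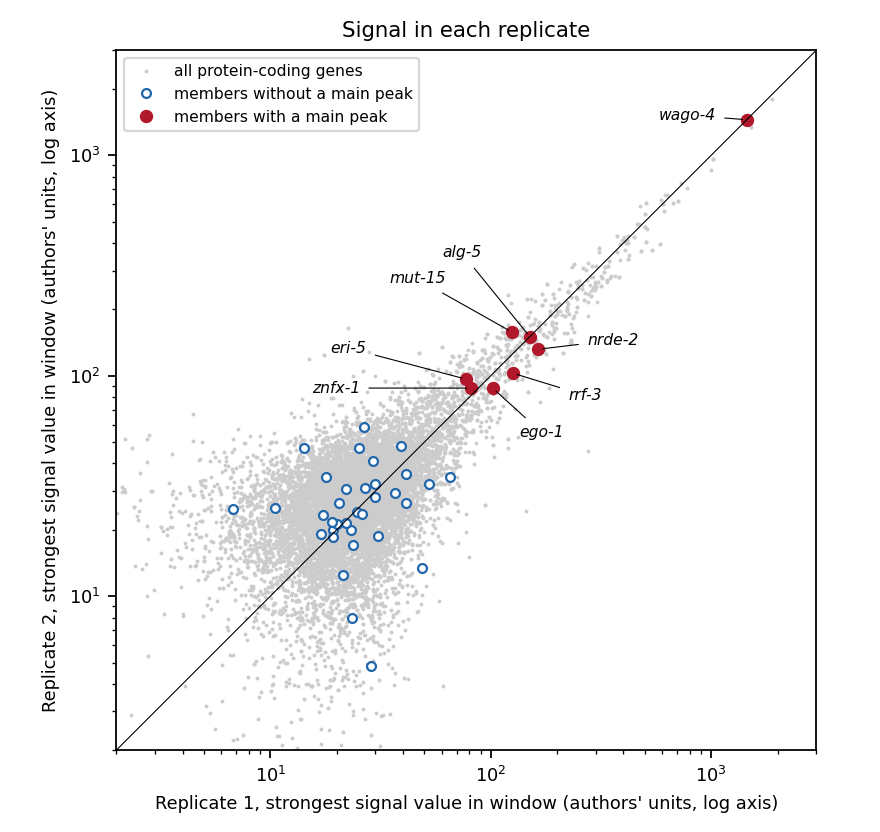
Strongest signal value in the 5' end window in replicate 1 (x axis) and replicate 2 (y axis), both in the authors' units on log axes, for genes listed in both replicates. Grey points are all protein-coding genes, open blue points are small RNA pathway genes without a main peak, filled red points those with one, and the line marks equal values. The 8 labelled genes lie close to the line, wago-4 at 1452.9 and 1450.3, and the open points scatter more widely.

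The position of the peaks set the 8 genes in 2 groups. For wago-4, rrf-3, eri-5, ego-1 and znfx-1 the summit was nearer to the gene than to any other protein-coding 5' end, and for alg-5, mut-15 and nrde-2 another protein-coding gene was nearer. That is 5 of 8 genes, against 916 of the 1225 protein-coding genes with a main peak (74.8%). The summit of 6 of the 8 lay within 500 bp upstream, against 67.1% of those genes, whose median position was 247 bp upstream. Only eri-5 and znfx-1 had a main peak that fell in no other gene's window.

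**Figure D3:**
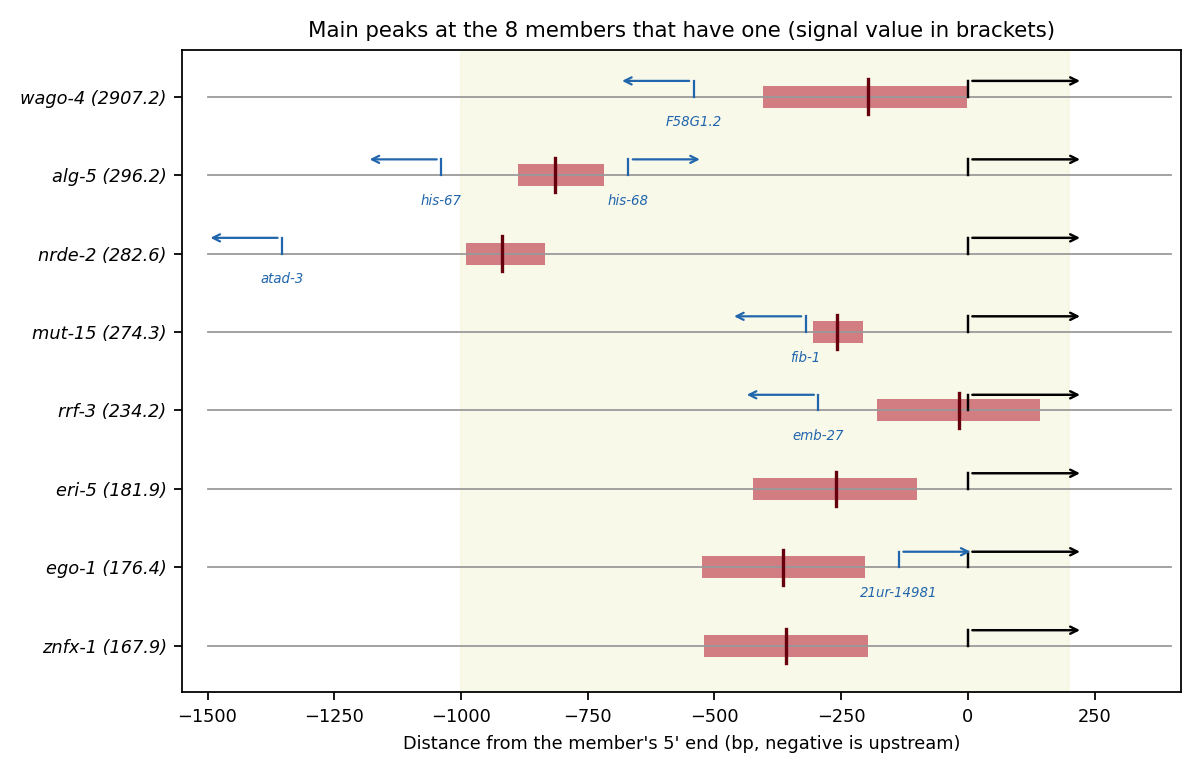
Main peaks at the 8 genes that have one, drawn by distance in bp from the gene's 5' end with upstream to the left. Red boxes are the peaks, dark bars the summits, black arrows the 5' ends of the genes, blue arrows those of other genes whose window holds the same summit, and the shaded band the window. The summits of alg-5 and nrde-2 lie more than 500 bp upstream, at -815 and -920.

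The share of genes with a main peak was about the same with and without a divergent neighbour within the list. Of all protein-coding genes, 14% of the 3539 with a start on the opposite strand within 1000 bp upstream had a main peak, against 4.43% of the 16434 others. In the list these were 3 of 19 genes (wago-4, rrf-3 and mut-15, 15.8%) and 5 of 32 (15.6%). The counts of the list are small and the difference was not tested.

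The number of genes with a main peak was the same under most settings, while the background moved with the list. It was 8 in the authors' conservative list (background 6.01%), in the stronger 50% of main peaks (3.97%), in the list of replicate 1 (4.3%) and in that of replicate 2 (4.03%). It was also 8 with a window of 2000 bp upstream (8.2%), when any overlap of peak and window counted (6.65%), and without peaks within 100 bp of tRNA genes (5.82%). Some of these settings could not lower the count. The larger window and any overlap can only add genes, and the ranks given above place all 8 peaks in the stronger 50%. A window of 500 bp left 6 genes (4.8%), without alg-5 and nrde-2. When a summit counted only for the gene whose 5' end was closest, 4 genes remained (7.84%, against 3.89%), and these were wago-4, rrf-3, eri-5 and znfx-1.

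**Figure D4:**
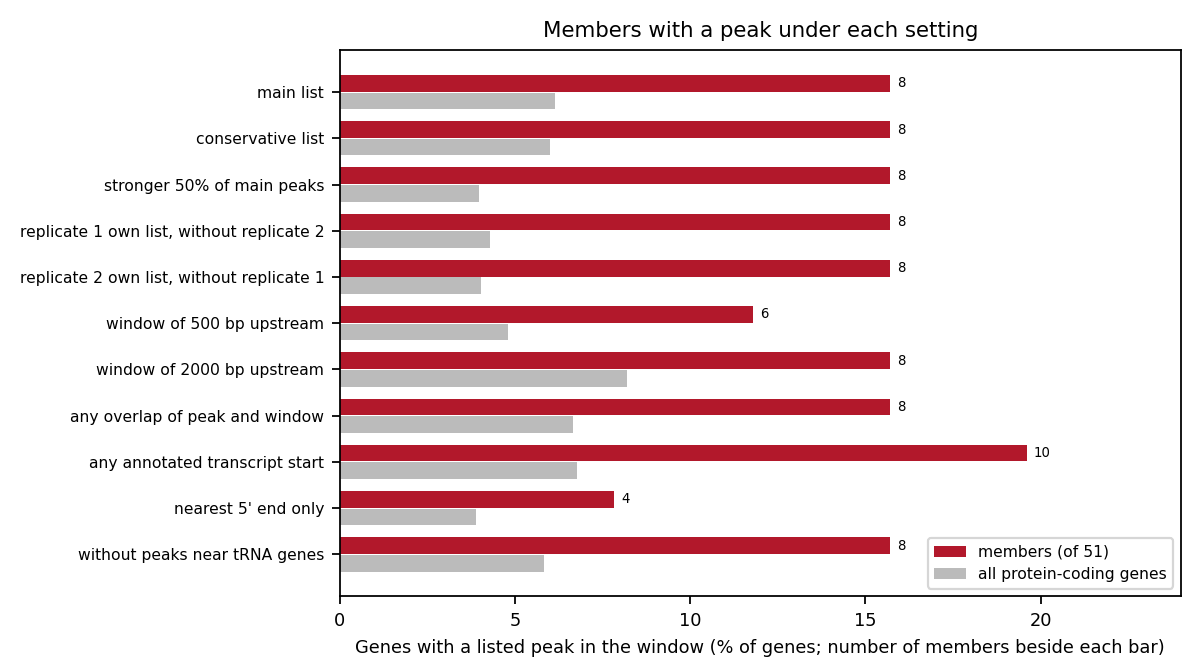
Share of genes with a listed peak in the window under each setting, in percent, for the 51 small RNA pathway genes (red bars, with the number of genes beside them) and for all protein-coding genes (grey bars). The number of pathway genes is 8 under 8 of the 11 settings, 6 with the smaller window, 10 with any transcript start and 4 with the nearest 5' end.

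The sequence under the wago-4 peak belonged to a set of strong peaks that share 10 letters. Sequences were ranked by a difference in counts, not a ratio, over 1930 main peaks away from tRNA genes. Windows of the central 100 bp were compared with 100 bp at 250 to 350 bp from the summit. GGAGTGTCGT was the 10-letter sequence with the largest difference, in 93 central windows against 2. The wago-4 peak therefore took part in choosing it. The shares below come largely from the peaks used for that choice, so a surplus over the side windows is built in. Both strands were searched. Within 200 bp around the summit it stood in 114 of 2228 main peaks (5.12%), against 0.224% and 0.135% in windows of the same length 400 bp to the left and right. In the strongest 10% of peaks it stood in 66 of 222 (29.7%) and in the weaker 90% in 48 of 2006 (2.39%). Allowing 1 mismatch, the shares were 8.17% of all main peaks and 44.1% of the strongest 10%, against 0.987% and 0.718% in the side windows of all main peaks.

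**Figure D5:**
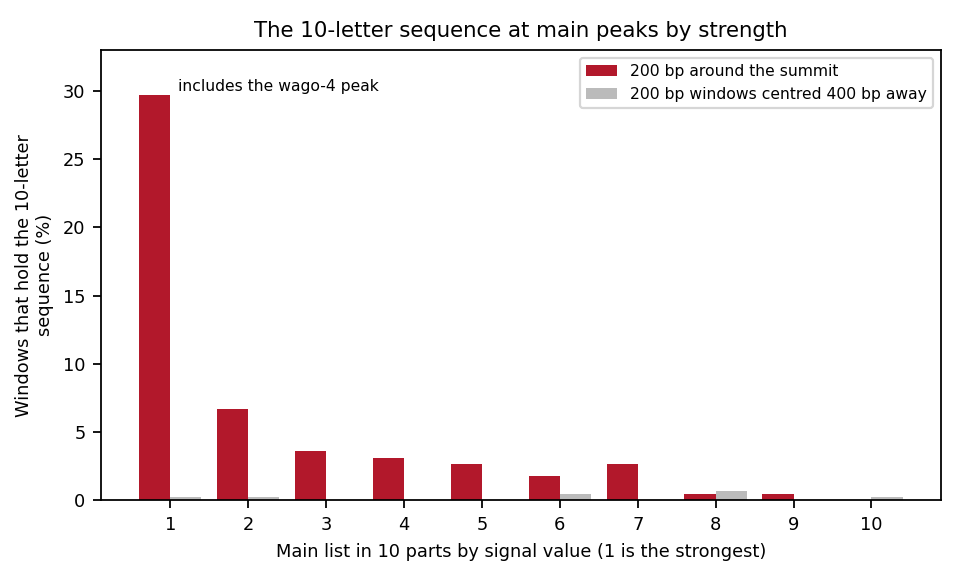
Share of windows of 200 bp that hold the 10-letter sequence on either strand, in percent, with the main list cut into 10 parts from the strongest (1) to the weakest (10). Red bars are windows around the summit and grey bars windows 400 bp away. The share falls from 29.73% in the strongest, which includes the wago-4 peak, to 6.73% in the next and 0.0% in the last.

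The wago-4 copy is set beside those of 7 other strong main peaks, to show the bases on both sides of the 10 letters. They were taken in order of signal after the values were seen, with the peaks of 1 chromosome left out. Each line gives the 10 letters in capitals with 15 bases to both sides, from ce11. The wago-4 stretch is chrII:12919319-12919358 on the plus strand. On the plus strand also lie chrIV:9147144-9147183 in the peak of aly-2, rpb-12 and daf-10 (signal 1957.4), chrIV:14464240-14464279 at dld-1 (1498.2) and chrIII:2401332-2401371 at cic-1 and strm-1 (1272.5). On the minus strand lie chrIV:13687193-13687232 at nyn-1 (1478.0), chrV:12318286-12318325 at R04F11.2 and R04F11.5 (1328.4), chrV:19190256-19190295 at Y39B6A.3 and pph-5 (1133.8) and chrIV:1309965-1310004 at F53H1.4 and ddx-46 (929.8).
wago-4: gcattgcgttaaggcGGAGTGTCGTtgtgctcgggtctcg
aly-2: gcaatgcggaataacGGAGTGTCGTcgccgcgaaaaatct
dld-1: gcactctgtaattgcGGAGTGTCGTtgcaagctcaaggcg
nyn-1: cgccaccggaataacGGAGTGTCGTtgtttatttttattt
R04F11.2: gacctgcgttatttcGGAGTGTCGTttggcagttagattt
cic-1: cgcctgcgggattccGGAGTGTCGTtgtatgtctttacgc
Y39B6A.3: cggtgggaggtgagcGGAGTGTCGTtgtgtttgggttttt
F53H1.4: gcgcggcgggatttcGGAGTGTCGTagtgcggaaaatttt
Of the 40 bases, including the 10 that are equal by choice, the number equal to wago-4 was 24 at dld-1 and Y39B6A.3, 23 at R04F11.2, 22 at aly-2 and F53H1.4, 20 at cic-1 and 19 at nyn-1. Unrelated sequences also share some bases, and their level was not worked out. These numbers therefore do not show a likeness beyond the 10 letters.

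Of the 8 genes with a main peak, wago-4 alone held the 10 letters exactly within 200 bp around the summit. In rrf-3 they stood with the G6C difference, beginning 3 bp upstream of the summit. The other 6 genes held no copy with up to 1 mismatch there. Over whole windows from 1000 bp upstream to 200 bp downstream, 230 of 19973 protein-coding genes (1.15%) held the exact letters, and 130 of these (56.5%) had a main peak, against 5.55% of the rest. The letters were chosen from these same main peaks, so a contrast in this direction was set by the choice and is no separate evidence. Of the 51 genes, wago-4 was the only one with the letters in that window. A match describes the sequence and does not show a site of the protein.

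The 6-letter sequence with the largest difference by the same measure was ACGCGC. It was found in 14.7% of all main peaks within 200 bp around the summit, against 2.33% and 2.96% in the side windows, and in 0 of the 8 peaks of the list. Read against 14.7%, 0 of 8 is not a departure that a count of this size can show. The overlapping CGCGCC, at place 2 of the same ranking, did stand near the rrf-3 and znfx-1 summits when both strands were read. Over whole windows, 12 of the 51 genes held ACGCGC, of which eri-5 had a main peak, and 15.8% of all protein-coding genes did. The base composition of the 8 peaks was also spread: the GC content of the 200 bp ran from 28% at eri-5 and 30% at rrf-3 to 47.5% at mut-15 and 50% at alg-5, with 42% at wago-4. The median over all main peaks was 42.5%, with quartiles of 37.5% and 48%.

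Other genes of the pathway came from a list of 44 further names, of which 38 were in the annotation, and 11 of them had a main peak (28.9%, against the background of 6.13%). The strongest were at tofu-2 (551.0, with 316.4 in replicate 1 and 254.3 in replicate 2), tofu-5 (509.5, with 260.0 and 256.9) and vig-1 (393.9, with 194.9 and 203.6). The product of tofu-2 is part of the enzyme that cuts piRNA precursors, together with that of tofu-1 (111.3). The product of tofu-5 belongs to the complex at piRNA genes that also holds PRDE-1 and SNPC-4, whose own genes had 69.4 and nothing. The vig-1 and tsn-1 (99.2) genes encode proteins associated with the microRNA silencing complex.

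The other 6 were the exonuclease gene xrn-2 (230.2), the microRNA cofactor gene nhl-2 (212.1), the piRNA factor gene tofu-6 (140.2), the piRNA silencing gene pid-5 (138.6), the germ granule gene lotr-1 (104.7) and morc-1 (96.0), a chromatin factor of nuclear RNAi. In all, 5 of the 11 (tofu-2, tofu-5, vig-1, xrn-2 and nhl-2) were in both replicates' own lists, pid-5 and tsn-1 were in 1, and the other 4 in neither. The peak of tofu-5 held the exact 10 letters within 46 bp of the summit. Several of these peaks are shared, that of tofu-2 with spig-1 at 381 bp upstream and that of tofu-5 with nuo-6 at 134 bp. In others the start of another gene was nearer. The tofu-1 summit lay 271 bp from tofu-1 and 74 bp from ruvb-1, and that of tsn-1 305 bp and 31 bp from F10G7.9. The nhl-2 summit lay 829 bp from nhl-2 and 36 bp from the noncoding RNA gene F26F4.14. That of vig-1 lay 434 bp from vig-1 and 130 bp from the piRNA gene 21ur-13751.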

How the data were processed

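ChIP-seq peak lists of 2 biological replicates of 1 group were used, with replicate numbers from the labels, which do not say that the replicates were grown separately. Peaks were derived on build ce11 from filtered alignments and a control, per the deposited descriptions of the files; neither aligner nor peak caller is named (not given in the sources used here). The signal value in the deposited lists is the authors' score of a peak against a control, in units that no source states. The deposited score is a whole number up to 1000 that rises with the −log10 of the irreproducible discovery rate, which the authors' ranked lists give as a column of its own, and 830 is the lowest score in the main list. The authors' summit position was read as an offset in bases from the peak start. The main list is the authors' thresholded list that is not called conservative; of its 2228 peaks, 2214 are also in the ranked list used for candidates, and all are in the authors' other ranked list of both replicates. Scores can differ between those lists, so none is printed for candidates.

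Genes came from Ensembl release 115. Offsets run from the gene's 5' end to the summit, negative upstream, and replicate values are those of the overlapping peak (at least 1 bp) in each replicate's ranked list. The 10 letters were searched in the ce11 genome. The ranking that chose them was tested on simulated sequences, and the assignment of summits to windows on planted summits. The search for matches itself was not tested in this way. Python 3.11.15, numpy 2.4.6, pandas 2.3.3 and matplotlib 3.10.9 were used. The genes and lists were chosen with earlier results of these data known, so no test and no p-value is given. All listed genes could be named; other genes were named where they share a summit, belong to the further list, or were compared for sequence. Alternatives were other lists, windows, 5' ends and ways of assigning peaks.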

Additional observations from a re-analysis of the deposited data

How the results depend on the processing

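The genes with a main peak numbered 8 under the conservative list, in the list of either single replicate, with the stronger 50% of peaks, a window of 2000 bp, any overlap and the list without peaks near tRNA genes, the last added after seeing the data. The window of 2000 bp and any overlap could only add genes. With the nearest 5' end alone the counts were 4 for the whole list, 1 for germline Argonautes, 3 for the other genes and 7 for the further pathway genes, against 8, 2, 6 and 11. The count of germline Argonautes was 1 with a window of 500 bp and 4 with any transcript start. The further genes numbered 7 in the stronger 50% of peaks and 6 to 6 in the lists of the single replicates. The median strongest signal of germline Argonautes moved from 44.7 to 22.6 with the window of 500 bp and to 76.5 with any transcript start, and that of the other genes from 47.3 to 36, to 59.0 with the window of 2000 bp and to 53.3 with any transcript start. The other pooled ranked list, also added after seeing the data, gave both medians within the spread between replicates. No paired analysis was possible because all samples belong to 1 group. Depth is unknown, so a window with nothing listed does not show that signal was absent.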
